A study of Arabidopsis thaliana with 21 samples.

Results

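The 90 probe sets described here read lower in hypocotyls of all 3 max mutants of Arabidopsis thaliana than in hypocotyls of intact wild-type plants. They were chosen by those values. A probe set was taken where the group mean on the deposited log2 scale was at least 1 below the intact mean in max1, in max2 and in max3, and where the decapitated mean was less than 3 below it. A difference of 1 on this scale is a factor of 2. Of 22746 probe sets, control probe sets left out, 94 met the rule, which is 0.413%. TRM22, TRM28, IQD18 and GH9B18 were among them and were left out by name, and 5 further genes named for leaving out did not meet the rule. Of the 90 members, 41 name a single gene in the array annotation, 1 names several genes and 48 name none and are given by probe set.

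Hypocotyls, the stem below the seed leaves, came from 2-week-old plants in 7 groups of 3 ATH1 arrays. The wild type (Col-0) was left intact, was decapitated by removing the shoot tip, was decapitated and given 3 mg per mL of the auxin indole-3-acetic acid (IAA), or was given 3 mg per mL of NPA, an inhibitor of polar auxin transport. The mutants max1, max2 and max3 received lanolin alone, as intact plants did, and their alleles and background strain are not given in the sources used here. Plants of all 7 groups carried lanolin with less than 10% ethanol, hypocotyls were harvested after 24 h, and each array held RNA pooled from 120 to 150 plants.

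Strigolactones are carotenoid-derived hormones that hold back the outgrowth of shoot branches, and the max mutants take their name from more axillary growth. MAX3 and MAX1 are enzymes of strigolactone synthesis, whereas MAX2 is the F-box protein through which strigolactones, and also the smoke-derived karrikins, mark repressor proteins for breakdown. Auxin made in the shoot tip moves down the stem and promotes strigolactone synthesis. Decapitation takes away the source of that auxin, IAA on the stump replaces it, and NPA blocks its passage. The 3 treatments thus act on stem auxin, and the 3 mutants on the hormone downstream of it.

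Array medians lay between 6.11 and 6.35 and correlations between arrays of a group between 0.985 and 0.995. Of all probe sets, 29.9% stayed below 3.5 in every array, where values pile up near background, so 3.5 is used here as the limit of low signal. The leaf genes RCA and LHCB4.2 had group means of 12.39 to 13.34 and 11.97 to 12.32, the cambium gene MOL1 9.17 to 10.58 and the phloem gene OPS 5.80 to 7.65. EXPA7 of root hairs, CLV3 of the shoot apex and FAMA of guard cells stayed below 3.5 in every array, and no xylem marker was measured by a probe set naming a single gene. What part the mix of cell types has in the values below was not tested. In RNA from whole hypocotyls, fewer cells of a type and less RNA per cell cannot be told apart.

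**Figure D1:**
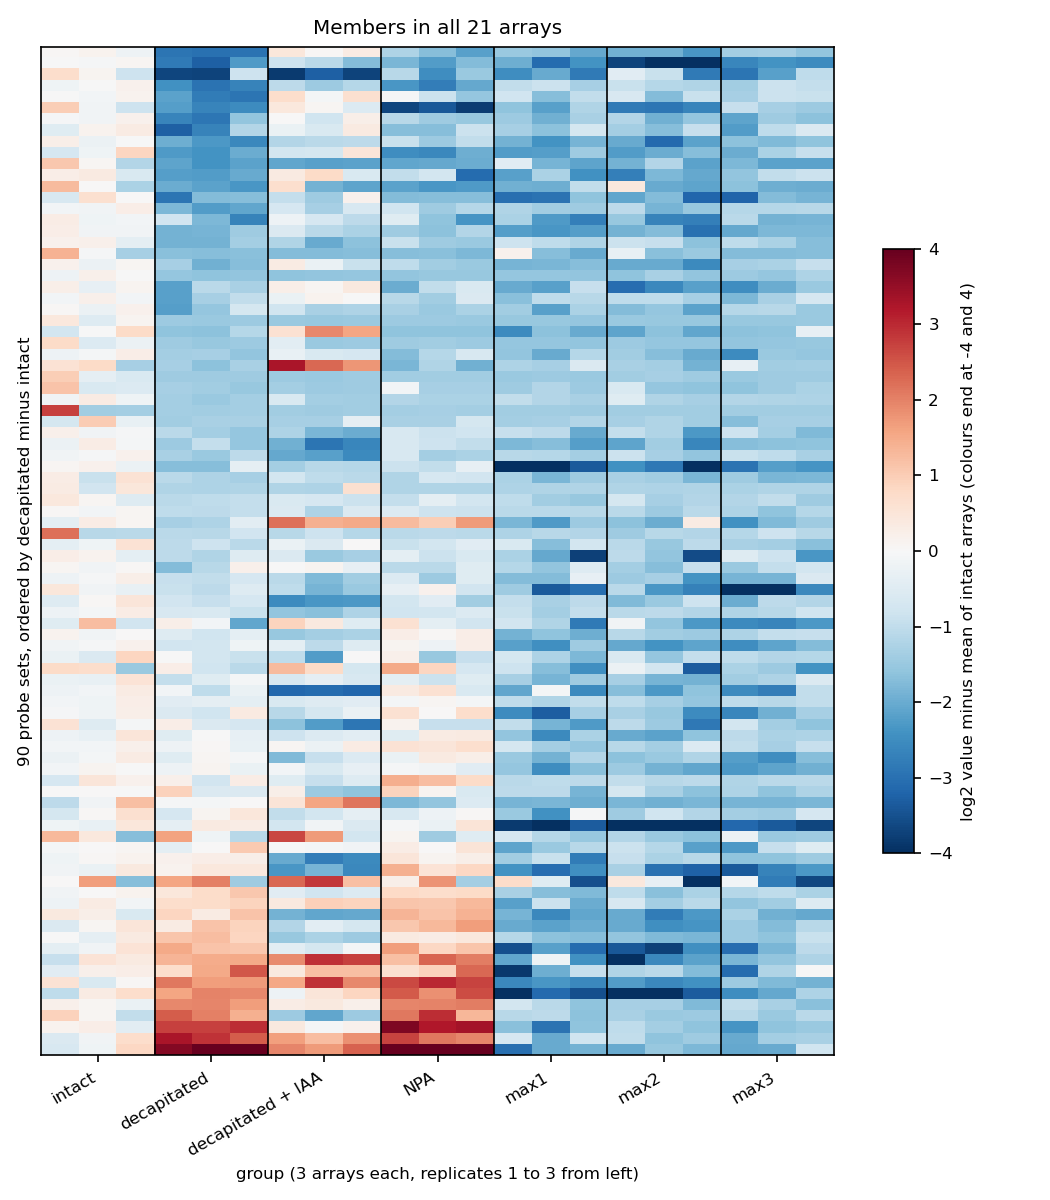
Log2 values of the 90 probe sets (rows, ordered by decapitated minus intact) in the 21 arrays (columns, 3 per group), each minus the mean of the intact arrays of its probe set. The 9 mutant columns are blue in nearly all rows because the rule chose them so. The decapitated columns run from blue at the top to red at the bottom because they set the order of the rows. The IAA and NPA columns hold both blue and red rows and follow this order only in part.

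The members lay at all signal levels. Their means over the intact arrays ran from 3.19 to 13.71 with a median of 7.60. The mutant values are the ones that chose the members and are given as a description, with no test. The median of the differences from intact was -1.56 in max1 (range -4.27 to -1.02), -1.48 in max2 (-5.51 to -1.0045) and -1.43 in max3 (-3.82 to -1.02). The lowest of the 3 mutant means was that of max1 in 28 members, of max2 in 36 and of max3 in 26. The 3 mutant means lay within 0.5 of each other in 49 members and more than 1 apart in 14.

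All 9 mutant arrays lay below all 3 intact arrays in 73 of the 90 members, against a background of 3.30% of all probe sets. The rule used this contrast, so the high share follows from it. In the other 17 members at least 1 mutant array reached into the intact range. Counted by mutant, the 3 arrays lay below the 3 intact arrays in 77 members for max1, 80 for max2 and 81 for max3. The share of 3.30% is no background for these counts. The rule used each of these contrasts too, and nothing is read from the counts. Among the members naming a single gene, AT1G62510, AT1G64590, AT1G20180, AT1G76470 and AT1G52560 overlapped.

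**Figure D2:**
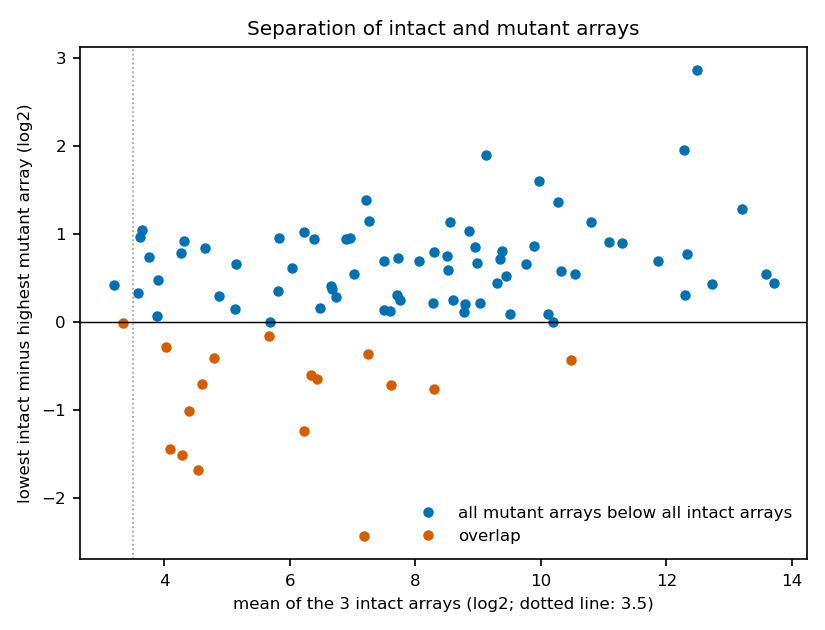
Gap between the lowest intact and the highest mutant array (log2, vertical axis) against the mean of the 3 intact arrays (log2, horizontal axis), 1 point per probe set. The 73 blue points above 0 have every mutant array below every intact array, and the 17 orange points below 0 overlap. Of these 17, 14 have an intact mean below the members' median of 7.60, and the highest is at 10.47.

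Low signal limits a part of the members. The intact mean was below 3.5 in 2 members, and 15 had at least 1 intact array below it. The means of all 3 mutants were below 3.5 in 18 members, where the difference from intact is at most as large as the distance to the background. In 11 members the means of all 6 other groups were below 3.5. In 6 of these 11 a single array or more of those groups still read above it. In 2, AT1G12845 and 249082_at, the intact mean was below it as well, at 3.19 and 3.34. The 3 intact arrays read 6.09, 1.96 and 1.99 for 249082_at, and 6.23, 2.90 and 2.93 for 247095_at. Both met the rule through intact replicate 1 alone.

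At the limit of 1, the last members inside were 256825_at, 251291_at and 246401_at, whose highest mutant difference was -1.0045, -1.010 and -1.018. Just outside lay AT1G11820 at -0.995, 250287_at at -0.992 and 257689_at at -0.990. At the limit of 3 in decapitated plants, AT5G47550, 246933_at and AT1G64590 were inside with -2.96, -2.79 and -2.73. BGLU47, ALC and 257089_at met the mutant limit and were outside with -3.09, -3.11 and -3.18.

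**Figure D3:**
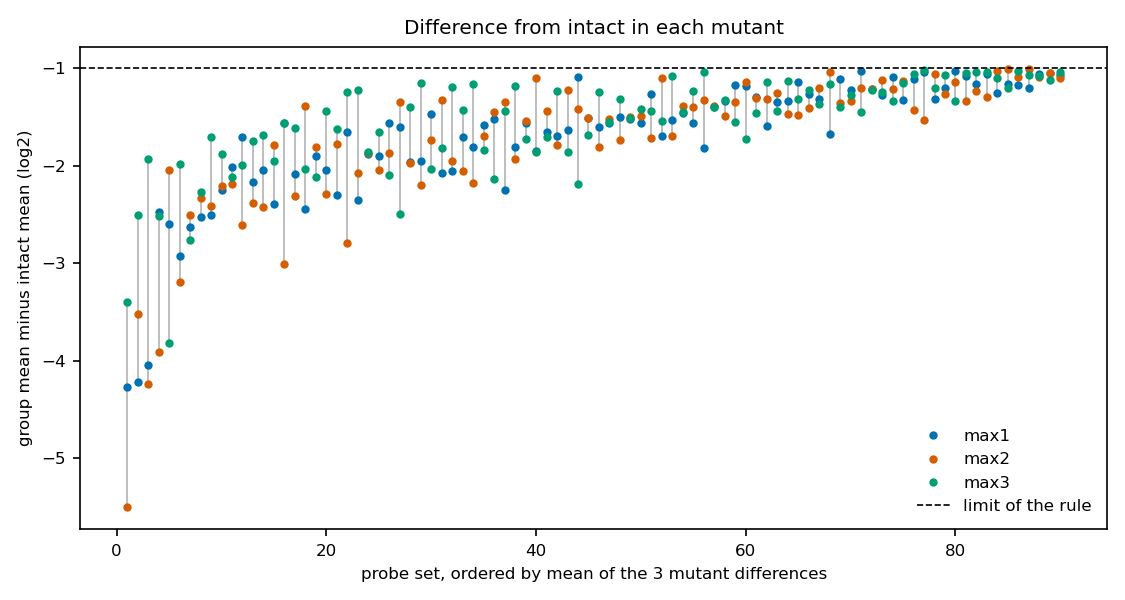
Group mean minus intact mean (log2, vertical axis) in max1, max2 and max3 for the 90 probe sets, ordered by the mean of the 3 differences. The dashed line is the limit of the rule, and grey lines join the 3 mutants of a probe set, which lie within 0.5 of each other in 49 members.

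The 5 members with the lowest mean of the mutant differences name no gene. They were picked out after their values were seen. The lowest of all, 246880_s_at, read 12.30, 12.20 and 12.95 in intact arrays and from 6.13 to 9.33 in the mutant arrays, with a median of 8.67. Its mutant means lay 4.39 below intact on average, while its decapitated, IAA and NPA arrays stayed between 11.74 and 12.99. This probe set thus combined a strong signal in every wild-type group with a weaker one in every mutant. All its mutant arrays stayed above the limit of low signal. The next, 254098_at, read 12.36, 12.44 and 12.03 in intact arrays and 6.97 to 10.07 in mutants, with a median of 9.34. In 264524_at the intact arrays read 7.25, 8.60 and 8.97 and the mutant arrays 2.74 to 7.04, with a median of 4.94. Its decapitated arrays, at 9.86, 10.25 and 10.20, lay above all intact arrays, so that the mutants and decapitated plants stood on opposite sides of intact plants. The mean mutant differences of 246933_at and 258596_at were -2.97 and -2.82.

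Of the 41 members that name a single gene, the reference annotation gives 5 a name beside codes. These are the enzyme gene MGL, the transcription factor genes PTL, TINY2 and bHLH94, and the transporter gene NPF3.1. For the other 36 it gives the locus only, and no role is stated for them here.

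MGL (AT1G64660) encodes methionine gamma-lyase, which splits methionine and feeds the synthesis of isoleucine. It read 6.17, 6.30 and 5.62 in intact arrays and 3.09 to 5.002 in mutant arrays, with a median of 4.42. Its decapitated arrays read 8.75, 8.77 and 8.99, its IAA arrays 6.42, 5.997 and 6.19 and its NPA arrays 9.75, 9.22 and 9.36. MGL was thus lowest in the mutants, near the intact level in decapitated plants given IAA, and highest in the decapitated and NPA groups. Of these 5 sets of arrays, intact and IAA overlapped and no other pair did.

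NPF3.1 (AT1G68570) is a transporter of the NRT1/PTR family, whose members carry nitrate, peptides and hormones. It read 9.45, 9.09 and 9.81 in intact arrays and 7.61 to 8.57 in mutants, with a median of 7.85. Decapitated arrays read 10.57, 10.67 and 10.30, IAA arrays 7.93, 8.17 and 7.99, and NPA arrays 9.81, 9.75 and 9.88. The IAA arrays lay within the mutant range, and the decapitated arrays were the highest of all groups.

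bHLH94 (AT1G22490) encodes a basic helix-loop-helix transcription factor. It read 7.93, 8.43 and 9.46 in intact arrays and 6.36 to 7.68 in mutants, with a median of 6.62. The decapitated arrays were at 6.33, 6.23 and 6.62, the NPA arrays at 6.12, 6.03 and 6.67 and the IAA arrays at 7.88, 7.92 and 9.10. Unlike in MGL, decapitated and NPA plants lay beside or under the mutants, and the IAA arrays overlapped the intact range.

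PTL (AT5G03680), PETAL LOSS, is a trihelix transcription factor known from the outer organs of the flower. It read 9.94, 9.66 and 10.07 in intact arrays and 7.73 to 8.79 in mutant arrays, with a median of 8.40. Decapitated arrays read 7.67, 8.34 and 9.19, IAA arrays 9.08, 8.60 and 8.64, and NPA arrays 8.59, 8.40 and 8.62. All 18 arrays of the other groups lay below all 3 intact arrays. TINY2 (AT5G11590), a transcription factor gene of the AP2/ERF family, read 3.46, 3.86 and 3.63 in intact arrays and 2.06 to 2.42 in mutants, with a median of 2.11. It was at 2.05 to 2.15 in the 9 arrays of decapitated, IAA and NPA plants, so TINY2 read above 3.5 in 2 intact arrays and in no other array.

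The 8 locus-only genes with the lowest mean of the mutant differences from intact began with AT2G20670, which read 9.38, 9.62 and 10.30 in intact arrays and 6.04 to 8.72 in mutants, with a median of 6.71. Its decapitated arrays, at 11.27, 10.90 and 10.85, and its NPA arrays, at 11.43, 10.58 and 10.88, lay above all intact arrays. AT1G36060 shared that order, with 4.50, 4.95 and 5.95 in intact arrays, 2.13 to 4.34 in mutants and a median of 3.13. Its decapitated arrays read 8.80, 9.37 and 9.41 and its NPA arrays 9.20, 9.27 and 9.93. AT1G60160 read 6.46, 7.09 and 7.52 in intact arrays and 4.56 to 5.91 in mutants, with a median of 5.01, against 8.10, 8.33 and 8.70 with NPA. In these 3 genes the mutants lay under intact plants and the NPA arrays over them without overlap.

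AT5G17700 came closest to the median profile of the members over the 21 arrays (r = 0.92), followed by the unnamed 251199_at and 263498_at (r = 0.91 and 0.89). These correlations describe how alike the profiles are, and members share the arrays. AT5G17700 read 10.25, 9.84 and 9.83 in intact arrays and 6.98 to 8.23 in mutants, with a median of 7.94. Its decapitated arrays, at 8.09, 8.11 and 8.56, lay beside the mutants, and its IAA arrays, at 9.38, 8.88 and 8.71, between these and intact plants. AT1G10980 read 5.17, 6.45 and 5.85 in intact arrays and 2.61 to 4.22 in mutants, with a median of 3.75. AT2G28690 read 7.76, 7.63 and 7.12 in intact arrays and 3.78 to 6.98 in mutants, with a median of 5.91.

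Among those 8 genes, AT1G62510 and AT1G64590 had mutant arrays within the intact range. AT1G62510 read 7.37, 8.85 and 8.67 in intact arrays and 3.97 to 8.13 in mutants, with a median of 6.21, and from 9.51 to 11.22 in the 9 arrays of decapitated, IAA and NPA plants. It was thus higher in every treated wild-type array than in any intact or mutant array. AT1G64590 read 7.95, 7.36 and 6.43 in intact arrays and 4.34 to 6.79 in mutants, with a median of 5.07. Its decapitated arrays read 3.56, 3.55 and 6.43, so that replicate 3 stood apart from the other two.

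**Figure D4:**
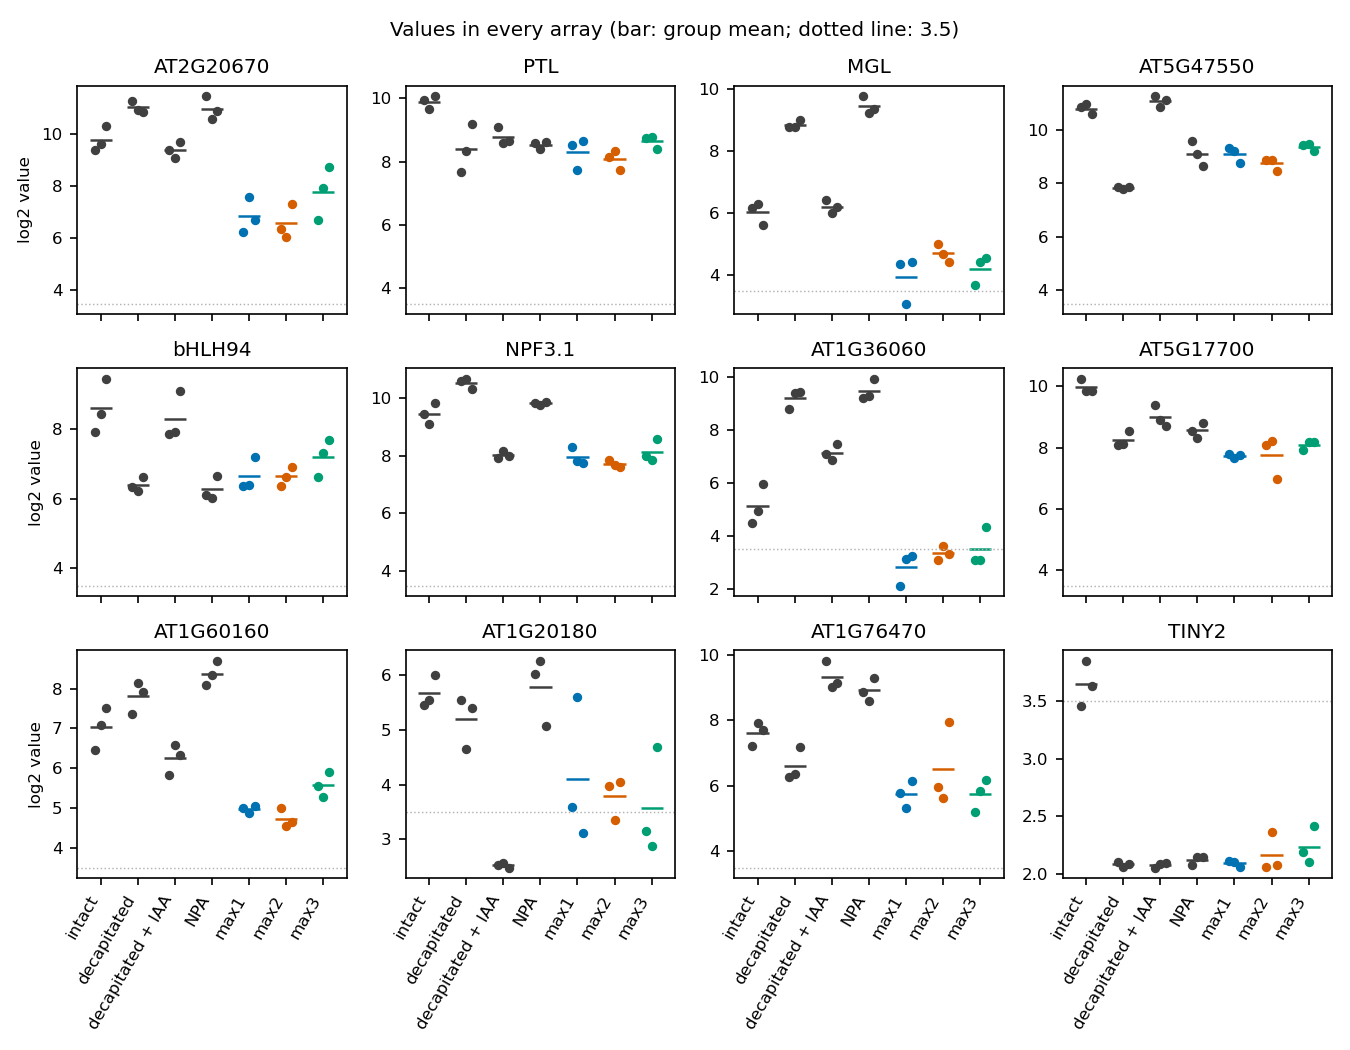
Log2 values in every array (points) with group means (bars) for 12 members, 1 panel each, over the 7 groups from intact to max3. The dotted line is the low-signal limit of 3.5. In all panels the mutant means lie at least 1 below the intact mean. Decapitated and NPA arrays lie above it in some genes (MGL, AT1G36060) and below it in others (PTL, TINY2). The IAA arrays lie above it in AT1G36060, on both sides of it in MGL and below it in PTL and TINY2.

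The differences of the other wild-type groups from intact are also descriptions, since the rule used the intact arrays. Decapitated means were at least 1 below intact in 41 members, at least 1 above in 11 and within 1 in 38, and the median of the differences was -0.95. With IAA the counts were 37, 10 and 43 (median -0.70), and with NPA 36, 15 and 39 (median -0.75). The same counts over all probe sets are not given here, so no excess in either direction is read from them. The members lowered in the mutants thus held genes far below and genes far above the intact level in decapitated and NPA-treated plants. AT1G36060 had the highest value in both respects, 4.06 above intact after decapitation and 4.33 above it with NPA.

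The comparison of NPA with decapitation plus IAA shares no array with the rule. It sets blocked auxin passage against replaced auxin. By the labels the IAA plants were also decapitated and the NPA plants were not. Auxin and removal of the shoot tip therefore cannot be told apart in this comparison. With limma across all probe sets and Benjamini-Hochberg adjustment at 0.05, 37 of the 90 members differed. Of these, 24 (26.7%) were higher with NPA against a background of 22.0% of all probe sets, and 13 (14.4%) were lower against 13.6%. Among the 14523 probe sets with an intact mean of at least 3.5 the backgrounds were 17.8% and 20.1%. The shares lay near the first pair of backgrounds. Beside the second pair more members were higher and fewer were lower, a difference that was not tested. The median difference was 0.10 over the members and 0.06 over all probe sets.

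Of the 24 members higher with NPA, 15 name a single gene. MGL was higher by 3.24 ± 0.32 (SE, 3 arrays a group, adjusted p = 2.05e-06) and NPF3.1 by 1.78 ± 0.20 (7.94e-06). AT1G20180 differed most among the named members, by 3.26 ± 0.56 (0.000453), with NPA arrays at 6.02, 6.26 and 5.07 and IAA arrays at low signal, 2.53, 2.57 and 2.48. AT1G36060 was higher by 2.33 ± 0.41 (0.000549) and AT1G60160 by 2.12 ± 0.28 (3.30e-05). In all 5 genes every NPA array lay above every IAA array. Of the unnamed members, 261156_s_at, which matches several genes, was higher by 3.78 ± 0.43 (1.02e-05), with NPA arrays at 6.01, 6.83 and 5.20 and IAA arrays at 2.44, 1.82 and 2.44.

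A further 10 named members were higher with NPA, by 0.80 to 1.79. AT3G18280, one of the strongest signals of the module, read 15.68, 15.69 and 15.75 with NPA and 14.01, 14.12 and 13.93 with IAA, a difference of 1.69 ± 0.21 (adjusted p = 1.94e-05). Its mutant arrays, 11.94 to 12.99 with a median of 12.40, lay below its intact arrays at 13.92, 13.79 and 13.44. AT4G04630 was higher by 1.35 ± 0.17 (3.32e-05), AT4G35070 by 1.79 ± 0.28 (0.000207) and AT1G13970 by 1.67 ± 0.29 (0.000455). AT2G18890, AT5G10310, AT4G18570 and AT5G60250 were higher by 1.16, 1.503, 0.80 and 1.17, with adjusted p-values of 0.000644, 0.00173, 0.00149 and 0.00851. AT5G60250 lost its call under 1 of 13 other settings of the fit (adjusted p = 0.0843). The calls of AT2G20670 (1.59 ± 0.47, 0.0184) and AT5G10970 (1.69 ± 0.51, 0.0191) depended on single arrays. Without NPA replicate 1 their adjusted p-values were 0.0628 and 0.0743. Leaving out IAA replicate 2 gave 0.0692 and 0.0506, and leaving out IAA replicate 3 gave 0.0743 for AT5G10970.

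The 13 members lower with NPA include 5 named genes. AT5G47550 differed by -1.97 ± 0.20 (adjusted p = 3.63e-06), with NPA arrays at 9.57, 9.11 and 8.63 and IAA arrays at 11.26, 10.84 and 11.13. Its intact arrays, 10.84, 10.95 and 10.60, lay beside the IAA arrays, and its mutant arrays, 8.48 to 9.47 with a median of 9.22, beside the NPA arrays. bHLH94 differed by -2.03 ± 0.40 (0.00149) and AT2G34140 by -1.03 ± 0.25 (0.00694). These genes were higher with IAA and in intact plants than with NPA and in the mutants. The call of AT2G34140 was lost under 1 of 13 other settings of the fit (adjusted p = 0.0928). AT1G79720 differed by -1.18 ± 0.33 (0.0143), a call lost without IAA replicate 3 (0.0582). AT1G14240 differed by -0.99 ± 0.31 (0.0256), with adjusted p-values of 0.0591 without NPA replicate 1, 0.105 without NPA replicate 2, 0.0889 without IAA replicate 2 and 0.0563 with IAA replicate 3 left out. The unnamed 246401_at, 246919_at and 254001_at had the lowest differences, -4.10, -3.61 and -2.99.

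The direction of the NPA against IAA difference can be set beside that after decapitation. All 13 members lower with NPA had a decapitated mean below intact, and 12 of the 24 higher with NPA had one above intact. The IAA mean was below intact in 20 of those 24 and above intact in 7 of those 13. Across the members, the NPA minus IAA difference and the decapitated minus intact difference, which share no array, had a Pearson correlation of 0.56, against 0.70 across all 22746 probe sets. These are descriptions across probe sets of the same arrays. The rule used the intact arrays, which favours means below intact among the members. The same counts over all probe sets are not given here, so nothing is read from the counts.

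**Figure D5:**
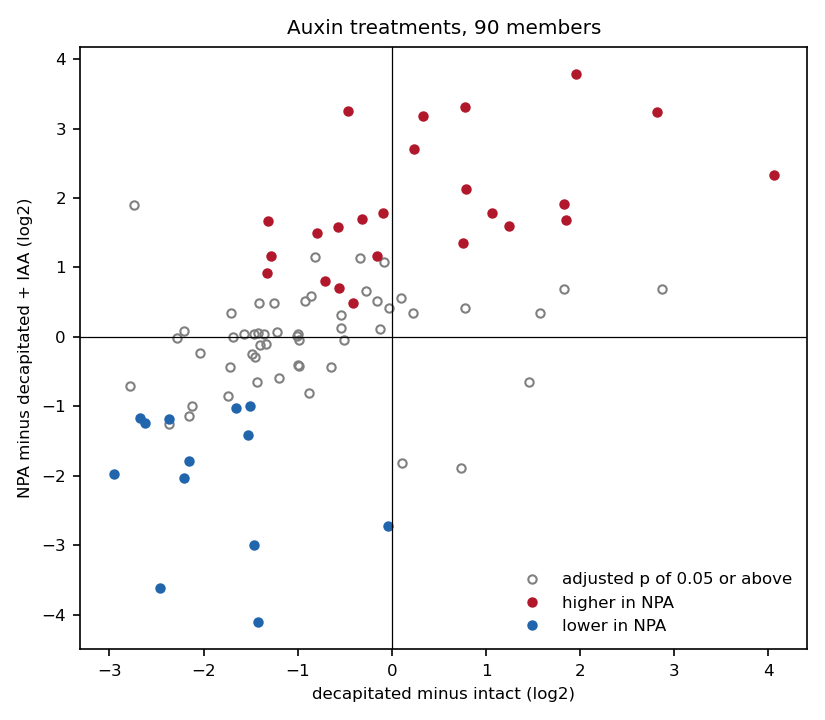
NPA minus decapitated plus IAA (log2, vertical axis) against decapitated minus intact (log2, horizontal axis), 1 point per probe set. Filled red and blue points are the 24 members higher and the 13 lower with NPA at an adjusted p below 0.05, and all 13 blue points lie left of 0 on the horizontal axis. The rule used the intact arrays, so positions along the horizontal axis are a description.

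IAA on the decapitated stump was compared with decapitation alone. The decapitated arrays entered the rule as a limit, since members less than 3 below intact were kept, so the shares are given beside the background as a description and nothing is read from their relation. Of the 90 members, 19 (21.1%) rose with IAA against a background of 11.0% and 20 (22.2%) fell against 11.9%. Among probe sets with an intact mean of at least 3.5 the backgrounds were 16.1% and 15.2%. The median difference was -0.02, and -0.04 over all probe sets. Of the 37 members that differed between NPA and IAA, 32 also changed here, all with the opposite sign, and both comparisons use the IAA arrays.

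Among the named members 8 rose and 15 fell. AT5G47550 rose by 3.23 ± 0.20 (SE, adjusted p = 1.65e-08), from 7.87, 7.80 and 7.86 in decapitated arrays. AT1G76470 rose by 2.71 ± 0.49 (0.000735), from 6.28, 6.37 and 7.20 to 9.82, 9.02 and 9.12, which is above its intact arrays at 7.23, 7.90 and 7.70. AT1G79720 rose by 2.19 ± 0.33 (0.000153) and bHLH94 by 1.90 ± 0.40 (0.00265). In AT5G47550 and AT1G76470 every IAA array lay above every decapitated array, and the same held for AT1G79720 and bHLH94. AT1G14240 rose by 1.46, AT2G34140 by 1.38 and AT5G13140 by 1.16 (0.00293, 0.000838 and 0.00105). The call of AT2G34140 was lost under 1 of 13 other settings of the fit (0.0596). AT1G30160 rose by 0.90 ± 0.30 (0.0433), a call lost whichever decapitated or IAA array was left out, with adjusted p-values of 0.0592 to 0.128.

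AT1G20180, MGL, NPF3.1 and AT1G36060 fell, with differences of -2.67, -2.64, -2.48 and -2.06 and adjusted p-values of 0.00247, 1.68e-05, 2.54e-07 and 0.00167. MGL and NPF3.1 ended near or under their intact levels, whereas AT1G36060, at 7.08, 6.85 and 7.48 with IAA, stayed above its intact arrays. AT5G10310, AT1G60160, AT3G18280, AT4G04630 and AT1G13970 fell too, with differences of -1.58 to -1.16, and those of AT2G18890 and AT4G18570 were -0.97 and -0.78, with adjusted p-values of 0.00760 or lower in all 7. Under 1 of 13 other settings of the fit AT1G13970 lost its call (0.0700). For 4 further genes the call depended on single arrays. AT5G10970 fell by 1.93 (0.0113), and its adjusted p was 0.0579 without decapitated replicate 1 and 0.0591 without IAA replicate 3. AT2G20670 fell by 1.64 (0.0201), and its adjusted p was 0.0714 without decapitated replicate 1, 0.0512 without IAA replicate 1 and 0.0728 without IAA replicate 2. AT3G61490 fell by 1.305 (0.0219), with 0.0944 without decapitated replicate 1 and 0.0873 without IAA replicate 2. This gene read 12.06, 11.67 and 11.21 in decapitated and 10.42, 10.00 and 10.61 in IAA arrays, all above its intact arrays at 8.21, 8.66 and 9.48. AT5G60250 fell by 0.92 (0.0374), with 0.0913 without decapitated replicate 2, 0.0920 without decapitated replicate 3, 0.164 without IAA replicate 1 and 0.0579 when the second IAA array was left out.

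NPA and decapitation, which both act on the supply of stem auxin, were also compared with each other. The rule used the decapitated arrays in the same way, so these shares too are descriptions. Of the 90 members 7 (7.78%) were higher with NPA, against a background of 1.12%, or 1.45% among probe sets with an intact mean of at least 3.5. None was lower at an adjusted p below 0.05 in limma (background 1.23%, and 1.63% among those probe sets). With the unadjusted p below 0.05, 3 were lower, and the share of all probe sets at that limit is not given here. The median difference was 0.27 over the members and 0.01 over all probe sets, and 68 of 90 members had a difference above 0. The share of all probe sets above 0 is not given here, so nothing is read from that count. Fitted on the arrays of these 2 groups alone, no member was called, and without NPA replicate 1 or without decapitated replicate 2 the count was 2.

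The 7 members were AT5G47550, AT1G76470, AT4G35070, AT5G13140, 249375_at, 248684_at and 258227_at. AT5G47550 was higher with NPA by 1.26 ± 0.20 (SE, adjusted p = 0.00431). 249375_at read 12.61, 12.39 and 12.59 with NPA and 11.82, 11.54 and 11.94 after decapitation, a difference of 0.76 ± 0.13 (0.00541). Both kept their calls whichever array was left out. AT1G76470 was higher by 2.31 ± 0.49 (0.0217), with NPA arrays at 8.88, 8.59 and 9.30, and its adjusted p was 0.0552, 0.0737, 0.0666 and 0.0864 without NPA replicate 1, NPA replicate 3, decapitated replicate 1 and decapitated replicate 2. AT4G35070 was higher by 1.25 ± 0.28 (0.0305), with 0.109, 0.0860 and 0.124 without NPA replicate 1, NPA replicate 2 and decapitated replicate 2. AT5G13140 was higher by 0.92 ± 0.22 (0.0383), with 0.138, 0.0811, 0.148 and 0.0846 without NPA replicate 1, NPA replicate 3, decapitated replicate 2 and decapitated replicate 3. These 3 calls are therefore less firm than the 2 before. The unnamed 248684_at was higher by 1.81 ± 0.37 (0.0186), with 0.0674, 0.0755 and 0.0575 without NPA replicate 1, decapitated replicate 2 and decapitated replicate 3. The unnamed 258227_at was higher by 1.17 ± 0.25 (0.0209), with 0.0729, 0.0651, 0.0720 and 0.0695 without NPA replicate 1, NPA replicate 3, decapitated replicate 2 and decapitated replicate 3.

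In 17 of the 41 named members neither NPA against IAA nor IAA against decapitation passed the test. They include PTL, TINY2, AT5G17700 and AT2G28690. PTL differed between NPA and IAA by -0.24 ± 0.31 (adjusted p = 0.559) and between IAA and decapitation by 0.38 ± 0.31 (0.368). AT2G28690 differed by 0.52 ± 0.65 (0.548) and -0.21 ± 0.65 (0.825). A standard error of 0.65 leaves room in AT2G28690 for changes of the size called in other members. For TINY2, AT1G70720 and AT4G03620, all 3 wild-type treatment groups had means near low signal, and no change among them was detectable there.

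The mutants were next compared with each other, which sets the response mutant max2 against the synthesis mutants. The same 9 mutant arrays chose the members, each mutant against intact plants, so the counts and p-values here are descriptions and nothing is read from their relation to the background. In max2 against the mean of max1 and max3, 1 of 90 members was called, against a background of 0.171%, and it was lower in max2. The member is 246933_at, with 5.42, 5.10 and 5.11 in max2, 7.16, 6.04 and 6.73 in max1 and 6.50, 6.72 and 6.59 in max3. At an unadjusted p below 0.05, 2 members were higher and 11 lower in max2. The share of all probe sets at that limit is not given here, so nothing is read from this split.

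In max1 against max3, 1 member was called against a background of 0.361%, the unnamed 249375_at, with 10.46, 10.72 and 10.37 in max1 and 11.11, 11.38 and 11.40 in max3. At an unadjusted p below 0.05, 1 member was higher and 7 lower in max1, again with no share of all probe sets beside the split and nothing read from it. No named member was called in either comparison. The medians over the members were 0.00 for max2 against the other mutants and -0.04 for max1 against max3. A missed threshold does not show that the mutants acted alike: the standard error of a max1 minus max3 difference is, gene by gene, the one given above for the treatments.

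Lists of strigolactone, auxin transport, microtubule, wall, flavonoid, defence, abiotic, nutrient, cell division and marker genes were set beside the members. Of 146 genes, 28 were measured by a probe set naming a single gene, and 0 of these 28 is a member. Before genes were left out by name, 0.413% of all probe sets met the rule, so nothing is read from this count. Against intact, 1 of the 28 was called in max1, none in max2 and 1 in max3, and the shares of all probe sets called in either direction were 3.74%, 3.12% and 2.02%. Both calls were higher in the mutant. At an unadjusted p below 0.05 the counts were 4, 3 and 5, with no share of all probe sets at that limit given here. Both calls are of WAG2, a kinase that directs auxin carriers. WAG2 was higher by 1.73 ± 0.38 in max1 (adjusted p = 0.0182) and 2.89 ± 0.38 in max3 (0.000982), with 1.42 ± 0.38 in max2 (0.0565). None of 7 tubulin and microtubule genes was called in limma in any mutant, with 1 of 7 at an unadjusted p below 0.05 in each and medians of -0.15, -0.07 and -0.23. This list does not hold TRM22, TRM28 or IQD18, which met the rule and were left out by name. It therefore does not speak for microtubule-linked genes as a whole. None of 7 wall genes was called, with 1, 0 and 1 at an unadjusted p below 0.05. The anthocyanin genes DFR and UF3GT had mutant differences of -1.02 to -2.34 and were not called. They met the mutant limit of the rule and were kept out by the decapitated limit, at -3.46 and -3.29 from intact. No gene of the strigolactone, nutrient and xylem lists could be read, and transcripts of the mutated genes themselves were not analysed here.

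By the reference annotation (TAIR10.1), 18 of the 41 named members lie on chromosome 1, or 43.9% against 25.7% of all probe sets naming a single gene. Chromosomes 2, 3, 4 and 5 hold 5, 5, 4 and 9, or 12.2%, 12.2%, 9.76% and 22.0%, against 16.4%, 20.4%, 14.6% and 22.4% of those probe sets. These shares were not tested. MGL and AT1G64590 lie close together on chromosome 1, with 8 protein-coding genes between them. PTL lies next to TRM28, which met the rule and was left out by name.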

How the data were processed

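Total RNA of 21 hypocotyl samples was measured on ATH1 arrays. The authors deposited log2 values per probe set; per the submitters' processing notes RMA, GCRMA and R 3.2.2 were used, with the role of each not given in the sources used here. Values were used without further scaling or filtering. Of 22810 probe sets, 64 controls were left out. Names came from the array annotation, in which 13513 probe sets name 1 gene, 503 several and 8730 none, and 13436 of the first matched the reference.

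The test was limma 3.58.1 (R 4.3.3) with 1 model of 7 group means on all 21 arrays (14 residual and 1.03 prior degrees of freedom), with Benjamini-Hochberg adjustment over 22746 probe sets in each of 5 comparisons and a threshold of 0.05. The fit was tested on simulated data. The number of arrays limits the precision.

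The members and gene lists were chosen with earlier results of these data known. Named were members with a symbol, the 8 locus-only genes with the lowest mean of the mutant differences from intact, up to 4 called members each way per comparison, those at the limits, the 3 closest to the median profile, and called list genes. Other members were named after their values were seen. Per the labels, treatments of a replicate number were performed simultaneously, so the numbers pair the arrays. Residual correlations had a median of 0.361 within and -0.123 between numbers. Promoter sequences were not used here.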

Additional observations from a re-analysis of the deposited data

Results flagged for a closer look

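Differences between the mutants passed the test in 2 probe sets, neither of which names a gene. The rule chose both on the same mutant arrays, each mutant against intact, so these p-values are no independent support. The probe set 246933_at was lower in max2 than the mean of max1 and max3, with a difference of -1.41 ± 0.25 (SE, limma adjusted p = 0.0323), and all 3 max2 arrays lay below all 6 arrays of max1 and max3. The adjusted p was 0.0591 without max1 replicate 3, 0.0707, 0.196 and 0.0737 without max2 replicate 1, 2 and 3, and 0.0704, 0.0694 and 0.0712 without max3 replicate 1, 2 and 3. The probe set 249375_at was lower in max1 than in max3, with a difference of -0.78 ± 0.13 (adjusted p = 0.0105), and all 3 max1 arrays lay below all 3 max3 arrays. Its adjusted p was 0.0574 and 0.0634 without max1 replicate 1 and 3, and 0.0539 and 0.0706 without max3 replicate 2 and 3.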

How the results depend on the processing

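The count of members by the rule was 27 with a limit of 1.5 below intact and 171 with a limit of 0.75. Other settings gave 73 to 114 members, and leaving out intact replicate 1, 2 or 3, settings chosen after seeing the data, kept 75, 79 and 70 of the 90. The 37 members called in NPA against IAA ranged from 30 to 42 and the 39 of IAA against decapitation from 34 to 41. The 7 members of NPA against decapitation became 2 with array weights, 0 in a fit of only the groups compared, and 2 to 6 when leaving out 1 array. The call in max2 against the other mutants became 0 in a fit of only the groups compared and 0 to 2 when leaving out 1 array. The call in max1 against max3 became 2 with array weights, 0 with only the groups compared, and 0 to 1 when leaving out 1 array. With the replicate block, which uses the pairing, the 5 counts were 41, 41, 7, 1 and 1, none moved by over 1.5 times. Restricted to the 73 members without overlap, a setting chosen after seeing the data, they were 34, 35, 6, 1 and 1. Of 85 called member values, 55 kept their call under every setting, 30 lost it under some and 0 reversed; the cause was not tested. A fit of only the groups compared has fewer arrays to estimate the spread. Signal near background limits 18 members in all 3 mutants.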
